A study of Mus musculus with 9 samples.

Results

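Immune checkpoint and costimulatory ligands were examined in neutrophils from mice with pancreatic tumors. The 8 genes were taken by symbol from the 46517 genes listed, each found in 1 row. They are Cd274 (PD-L1), Pdcd1lg2 (PD-L2), Cd80, Cd86, Pvr (CD155), Lgals9 (galectin-9), Cd47 and Sirpa (SIRPα). RNA sequencing covered 9 libraries, 3 each from bone marrow, blood and tumor, and each library came from a pool of 5 mice. All mice were C57BL/6 and carried an orthotopic (OT) tumor, grown in the pancreas from the luciferase-marked FC1242 line of KPC mice, a genetic model of pancreatic cancer. They were therefore alike in strain and tumor, and were compared by the compartment from which cells were taken on day 27. Cells were sorted as live CD45+ cells that lacked the lineage markers CD3, B220 and NK1.1 and carried Ly6G and Ly6C, with bone marrow labelled as Ly6G.hi. The tumor model rests on 1 cell line, and mice without tumors were not analysed here. The 3 pools of a compartment came from independent experiments, so the p-values measure the spread between such pools. The paper describes the 3 compartments as sampled from the same animals, whereas the main fit treated the libraries as unpaired.

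These proteins carry signals between myeloid cells and lymphocytes. PD-L1 and PD-L2 bind PD-1 on T cells and restrain them, whereas CD80 and CD86 bind CD28, which activates T cells, and CTLA-4, which restrains them. CD155 binds the inhibitory receptor TIGIT and the activating receptor CD226, and galectin-9 binds TIM-3. CD47 signals "do not eat me" to phagocytes by binding SIRPα, an inhibitory receptor of myeloid cells.

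On the authors' scale, the 8 genes divided into 4 that were higher in tumor libraries and 4 that were lower. Cd274, Pdcd1lg2, Cd80 and Pvr were higher in every tumor library than in any library of blood or bone marrow. Cd86, Lgals9, Cd47 and Sirpa were lower in every tumor library than in any other. On that scale, 29.9% of all genes tested were higher and 37% lower without overlap against blood, and 26.2% and 37.7% against bone marrow. The shares in this paragraph cover only the 7794 genes over the filter described below, which leaves out Pdcd1lg2 and Cd86. With plain library totals, described below, Lgals9 overlapped between tumor and blood and Cd86 between tumor and bone marrow, and 4 were higher and 3 lower in each contrast (39.7% and 26.9% of all genes against blood, 38.0% and 25.2% against bone marrow). Between blood and bone marrow, 3 of the 8 were higher and 1 lower in blood without overlap, beside 27.8% and 31% of all genes. The tumor libraries serve in both of these contrasts. Groups of 3 libraries allow no exact two-sided permutation p below 0.1.

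Cd274 and Pdcd1lg2 are neighbours on chromosome 19, separated by 22823 bases. To show the DNA at the start of the 3 B7 family genes that were higher in tumor, their RefSeq promoters (GRCm38.p6, 250 bases before to 50 after the start, plus strand) are given 5′ to 3′ (RefSeq entries matched 5 of the 8 genes). Capitals mark matches to the motifs searched on both strands, which were the ISRE core (GAAA, any 2 bases, GAAA), GAS TTCNNNGAA, a κB-like motif (GGG, any 5 bases, CC), AP-1 TGANTCA and the hypoxia response cores ACGTG and GCGTG.
Cd274, chr19:29367188-29367487: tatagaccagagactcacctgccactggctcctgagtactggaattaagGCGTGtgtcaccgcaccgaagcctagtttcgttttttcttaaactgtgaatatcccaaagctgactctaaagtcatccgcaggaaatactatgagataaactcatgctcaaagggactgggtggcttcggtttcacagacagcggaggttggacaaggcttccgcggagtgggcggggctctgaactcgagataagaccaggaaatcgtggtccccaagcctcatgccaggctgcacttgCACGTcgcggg
Pdcd1lg2, chr19:29410669-29410968: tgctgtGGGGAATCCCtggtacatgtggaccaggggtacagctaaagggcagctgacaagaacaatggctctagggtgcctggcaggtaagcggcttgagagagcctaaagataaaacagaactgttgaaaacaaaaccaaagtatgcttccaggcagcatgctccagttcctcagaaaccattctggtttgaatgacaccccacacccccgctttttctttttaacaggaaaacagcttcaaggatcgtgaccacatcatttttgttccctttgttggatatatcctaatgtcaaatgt
Cd80, chr16:38458683-38458982: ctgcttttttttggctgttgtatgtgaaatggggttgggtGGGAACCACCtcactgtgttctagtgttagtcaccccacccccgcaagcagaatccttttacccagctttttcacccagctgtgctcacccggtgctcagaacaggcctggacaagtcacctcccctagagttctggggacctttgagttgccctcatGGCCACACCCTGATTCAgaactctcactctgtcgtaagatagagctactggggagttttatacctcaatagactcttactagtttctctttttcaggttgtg
The Cd274 window held a match to each hypoxia core and also covered the annotated 5′ end of Plgrkt, which is read from the opposite strand. The Pdcd1lg2 window held 1 κB-like match, which matched on both strands. The Cd80 window, which lies inside the longer GENCODE gene, held 2 κB-like matches, the second directly followed by the AP-1 match. None of these 3 windows held a match to ISRE or GAS. Over all 27025 promoters of the same length, 19.7% held ACGTG, 32.5% GCGTG, 50.4% the κB-like motif, 7.93% AP-1, 3.49% ISRE and 8.47% GAS. The Lgals9 window, whose gene was lower in tumor, held 2 ISRE matches and 1 κB-like match. The Cd47 window, also of a gene lower in tumor, held 3 hypoxia core matches. These matches describe letters and are no evidence of binding, and the motifs were chosen after the expression values were known.

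The values are log2 FPKM, the log2 of fragments scaled to gene length and library size, as the authors calculated them. Whole reads were recovered from these values, with 4580807 to 7949367 reads per library. The authors scaled the library sizes by 0.840 ± 0.043 (SD, n = 3) in bone marrow, 0.841 ± 0.023 in blood but 1.15 ± 0.069 in tumor. Plain totals shift the median gene in tumor by 0.45, from -0.17 to 0.28 against blood. The limma test took in the 7794 genes whose log2 FPKM exceeded 0 in 3 or more libraries. Of the 8, 6 passed this filter, Pvr through the tumor libraries alone and Cd274 and Cd80 through blood and tumor, so their passing is tied to their direction.

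Among the 6 genes tested, 3 were higher and 3 lower in tumor than in blood at a Benjamini-Hochberg adjusted p under 0.05, with a median log2 fold change of 0.45. Over all genes tested, 28.1% were higher and 34.5% lower, with a median of -0.17. Against bone marrow, 3 were again higher and 3 lower, with a median of 1.09. Of all genes, 22.4% were higher and 32.9% lower, with a median of -0.21. Both medians of the 6 fall in the gap between the higher and lower genes, against blood between Cd80 (1.40) and Lgals9 (-0.50). They leave out Cd86 and Pdcd1lg2 and are tied to the filter, so they do not describe a shift of the genes as a set. Between blood and bone marrow, 2 were higher and 1 lower in blood, with a median of 0.34, beside 20.6% and 23.6% of all genes and a median of -0.04. With plain library totals, 3 were higher and 2 lower than in blood (37.5% and 24.4% of all genes), 3 and 2 than in bone marrow (33.4% and 21%), and 2 and 1 in blood against bone marrow (21.2% and 23.1%).

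**Figure D1:**
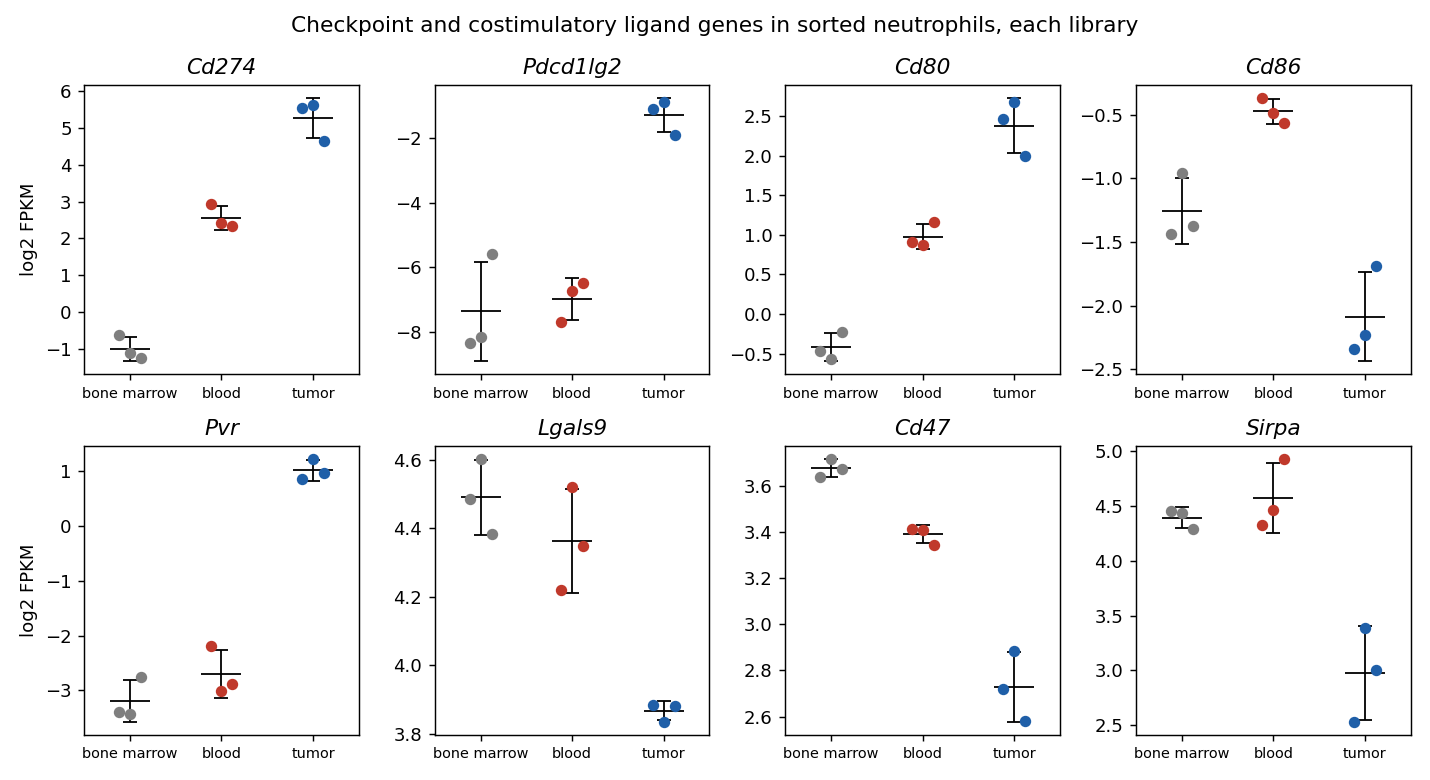
Log2 FPKM of the 8 genes, 1 panel per gene with its own vertical axis. Points are the 3 libraries of bone marrow, blood and tumor, lines are means and bars are the SD. Cd274 and Cd80 step up from bone marrow to blood to tumor, whereas Pdcd1lg2 and Pvr are high in tumor alone.

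Cd274 encodes PD-L1, the main ligand of PD-1 (ENSMUSG00000016496.7, GRCm38 chr19:29367455-29388095, plus strand). It had 89, 54 and 57 reads in the bone marrow libraries, 621, 620 and 486 in blood against 5971, 7715 and 4113 in tumor. Its log2 FPKM was -0.63, -1.11 and -1.26 in bone marrow, 2.93, 2.43 and 2.33 in blood, against 5.54, 5.63 and 4.65 in tumor. The 3 compartments were fully separated, and the third tumor library was the lowest of the 3. Cd274 was 6.55-fold higher in tumor than in blood (log2 fold change 2.71, SE 0.30, limma adjusted p = 0.000145). Against bone marrow the log2 fold change was 6.27 (SE 0.30, limma adjusted p = 3.85e-06), which ranked 262 of 7794 genes. The step from bone marrow to blood was also large, at 3.56 (SE 0.30, limma adjusted p = 9.79e-05), and ranked 131 of 7794. Every alternative tried kept these 3 calls.

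Pdcd1lg2 encodes PD-L2, the second ligand of PD-1 (ENSMUSG00000016498.9, chr19:29410919-29471161, plus strand). It was close to undetected outside tumor, with 1, 1 and 8 reads in bone marrow and 1, 3 and 3 in blood, against 174, 244 and 128 in tumor. The tumor log2 FPKM values were -1.10, -0.90 and -1.90, below the filter because the FPKM length includes introns. Summed over libraries, 546 tumor reads against 7 in blood gave a depth-scaled ratio of 70.0 (95% Clopper-Pearson interval 33.7 to 175, counting error only). Against the 10 bone marrow reads the ratio was 65.2 (35.2 to 137). Of these 10 reads, 8 came from the third bone marrow library, and the log2 FPKM difference of 6.06 ranged from 5.57 to 6.94 with 1 library left out. With limma-voom on the recovered reads, the log2 fold change was 5.42 in tumor against blood (adjusted p = 4.62e-05), and the contrast with bone marrow gave 5.83 (adjusted p = 2.39e-05). By this test 33.1% of all genes rose from blood to tumor and 29.3% from bone marrow to tumor. On plain library totals, a fit added after seeing the data, the fold changes were 5.88 and 6.30 (limma-voom adjusted p = 1.86e-05 and 9.71e-06), beside 41.2% and 39.2% of all genes. Its 3′ part overlaps A930007I19Rik on the opposite strand, which had 236 to 470 reads in tumor and at most 11 elsewhere. The counting is not stated to use strand, so reads of these overlapping genes cannot be told apart where they share sequence.

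The region around both genes was also examined, because they are neighbours. The window reaching 200 kb to either side held 9 genes, Cd274 and Pdcd1lg2 included, and 4 were tested, Cd274 among them. Ric1, between Pdcd1lg2 and Ermp1, was not tested. It had 144 to 267 reads in tumor, 80 to 109 in blood and 61 to 83 in bone marrow. Jak2, the kinase of interferon receptors, was higher in tumor, compared with bone marrow (log2 fold change 1.83, limma adjusted p = 0.000232), with a difference of 0.31 against blood that did not pass (adjusted p = 0.237). With plain library totals the difference from blood was 0.76 (limma adjusted p = 0.0141). Plgrkt, which shares its start region with Cd274, exceeded its bone marrow level in tumor (1.30, limma adjusted p = 0.0133) and did not pass against blood (0.43, adjusted p = 0.305) unless plain totals were used (0.88, adjusted p = 0.0355). Ermp1, on the far side, was lower in both tumor contrasts (-0.90 and -1.01, limma adjusted p = 0.0316 and 0.0225) but did not pass with plain totals (-0.45 and -0.56). Neither scaling gave it the direction of Cd274.

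Cd80 encodes a shared ligand of CD28 and CTLA-4 (ENSMUSG00000075122.4, chr16:38455561-38496335, plus strand). It had 135, 107 and 159 reads in bone marrow, 207, 286 and 293 in blood against 962, 1354 and 888 in tumor. The log2 FPKM was -0.47, -0.56 and -0.22 in bone marrow, 0.90, 0.87 and 1.16 in blood, against 2.47, 2.68 and 2.00 in tumor. Like Cd274, it rose at both steps with no overlap between compartments. It was 2.64-fold higher in tumor than in blood (log2 fold change 1.40, SE 0.21, limma adjusted p = 0.000567) and 6.97-fold higher than in bone marrow (2.80, SE 0.21, adjusted p = 2.02e-05). Blood exceeded bone marrow by 1.40 (SE 0.21, limma adjusted p = 0.0012). Every alternative that kept the gene also kept these calls.

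Cd86, the second CD28 and CTLA-4 ligand, went the other way in tumor (ENSMUSG00000022901.12, chr16:36603869-36666081, minus strand). It had 153, 181 and 159 reads in bone marrow, 190, 247 and 197 in blood against 76, 100 and 153 in tumor. Its log2 FPKM of -1.44, -0.96 and -1.38 in bone marrow, -0.37, -0.49 and -0.57 in blood, against -2.34, -2.23 and -1.69 in tumor kept it below the filter. Blood was the highest compartment and tumor the lowest, with no overlap on this scale. With plain totals the third tumor library lay above 2 of the bone marrow libraries, so these compartments overlapped. With limma-voom, Cd86 was lower in tumor than in blood (log2 fold change -1.59, adjusted p = 6.23e-05, beside 21.9% of all genes lower). This call held with plain library totals, at -1.15 (adjusted p = 0.00114, beside 14.9% of all genes lower). Against bone marrow, limma-voom gave -0.80 (adjusted p = 0.0125, beside 21% of all genes lower), but plain totals gave -0.36 (adjusted p = 0.237) and limma without the filter -0.83 (adjusted p = 0.0583). Blood exceeded bone marrow by 0.79 with limma-voom (adjusted p = 0.0121, beside 13.8% of all genes higher), a difference that did not pass in limma without the filter (0.78, adjusted p = 0.0977).

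The balance of the CD28 and CTLA-4 ligands therefore differed between compartments. Per exonic kilobase, the ratio of Cd80 to Cd86 was 0.872, 0.584 and 0.989 in bone marrow, 1.08, 1.14 and 1.47 in blood, against 12.5, 13.4 and 5.74 in tumor. The log2 ratio was -0.33 ± 0.40 in bone marrow, 0.29 ± 0.24 in blood against 3.30 ± 0.68 in tumor (SD, n = 3 each). No library scaling enters this ratio, since both genes were counted in the same library. The compartments did not overlap, with the smallest exact permutation p that 3 against 3 libraries allow (p = 0.1, two-sided, each contrast). The ratio was chosen after its values were seen.

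Pvr encodes CD155, the ligand of TIGIT and CD226 (ENSMUSG00000040511.12, chr7:19903578-19921160, minus strand). It had 11, 9 and 17 reads in bone marrow and 15, 12 and 11 in blood, against 197, 310 and 273 in tumor. Its log2 FPKM was -3.39, -3.43 and -2.76 in bone marrow, -2.20, -3.01 and -2.88 in blood, against 0.85, 1.22 and 0.97 in tumor. Blood and bone marrow overlapped, and tumor lay far above both. Pvr was 13.1-fold higher in tumor than in blood (log2 fold change 3.71, SE 0.34, limma adjusted p = 5.49e-05) and 18.5-fold higher than in bone marrow (4.21, SE 0.34, adjusted p = 3.47e-05). The difference between blood and bone marrow of 0.50 did not pass (95% interval -0.30 to 1.30, limma adjusted p = 0.282). A pseudocount of 1 FPKM lowered the tumor differences to 1.38 and 1.44, with both calls kept.

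Lgals9 encodes galectin-9 (ENSMUSG00000001123.14, chr11:78962974-78984946, minus strand). Its log2 FPKM was 4.48, 4.60 and 4.38 in bone marrow, 4.22, 4.52 and 4.35 in blood, against 3.88, 3.84 and 3.88 in tumor. The tumor libraries were nearly equal to each other and below all others on this scale. In RPM, reads scaled to the plain library total, tumor (370, 340 and 396) overlapped with blood (353, 412 and 377) and lay below bone marrow (404 to 425). The log2 fold change was -0.50 against blood (SE 0.098, limma adjusted p = 0.0027) and -0.62 against bone marrow (SE 0.098, adjusted p = 0.00102). With plain library totals neither passed, at -0.05 (adjusted p = 0.671) and -0.17 (adjusted p = 0.140), and quantile normalization also lost the call against blood (-0.10, adjusted p = 0.407). Blood and bone marrow differed by -0.13 (95% interval -0.35 to 0.10, limma adjusted p = 0.331).

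Cd47 encodes the ligand of SIRPα (ENSMUSG00000055447.17, chr16:49800533-49915010, plus strand). Its log2 FPKM was 3.64, 3.72 and 3.67 in bone marrow, 3.41, 3.41 and 3.34 in blood, against 2.72, 2.88 and 2.58 in tumor. The compartments stepped down without overlap, in the reverse order of Cd274. Cd47 was lower in tumor than in blood by a log2 fold change of -0.66 (SE 0.092, limma adjusted p = 0.000447) and lower than in bone marrow by -0.95 (SE 0.092, adjusted p = 8.66e-05). With plain library totals these were -0.21 (adjusted p = 0.0493) and -0.49 (adjusted p = 0.00116), and limma-voom with plain totals lost the call against blood (adjusted p = 0.0607). The difference of -0.29 between blood and bone marrow (limma adjusted p = 0.0373) passed in 11 of 22 alternatives. It was lost without any single bone marrow or blood library or the first tumor library, with adjusted p-values of up to 0.105.

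Sirpa encodes the receptor of CD47 and is the 1 receptor among the 8 genes (ENSMUSG00000037902.17, chr2:129592835-129632228, plus strand). Its log2 FPKM was 4.46, 4.44 and 4.29 in bone marrow, 4.32, 4.47 and 4.93 in blood, against 2.53, 3.39 and 3.01 in tumor. Tumor was below both compartments, which overlapped each other. Sirpa was 3.03-fold lower in tumor than in blood (log2 fold change -1.60, SE 0.23, limma adjusted p = 0.000552) and 2.68-fold lower than in bone marrow (-1.42, SE 0.23, adjusted p = 0.00128). Plain library totals kept both calls, at -1.15 and -0.97 (limma adjusted p = 0.00216 and 0.00635). Blood and bone marrow differed by 0.18 (95% interval -0.36 to 0.72, limma adjusted p = 0.567). Reads may be divided between Sirpa and the related Sirpb1 genes, so its level is less certain.

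**Figure D2:**
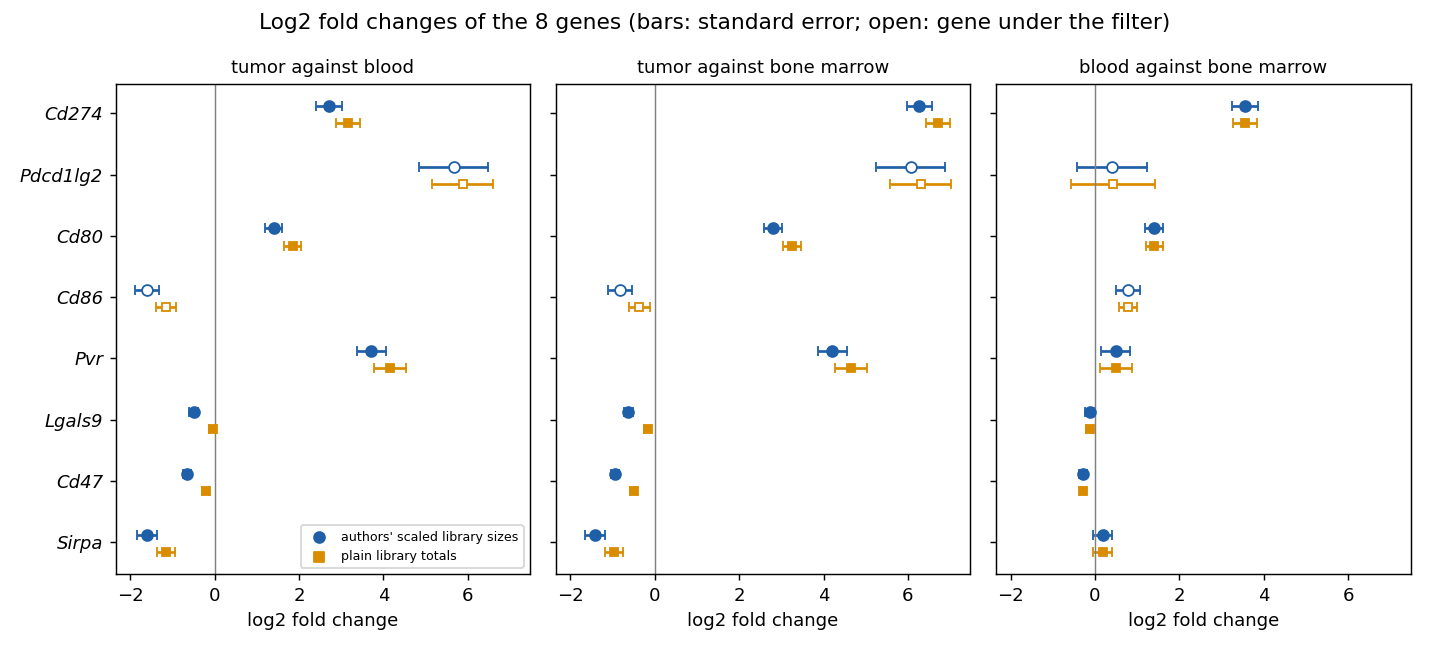
Log2 fold change of each of the 8 genes in the 3 contrasts, with the authors' scaled library sizes (circles) and plain library totals (squares). Bars are standard errors, and open symbols are genes under the filter, from limma without it (circles) or limma-voom (squares). Cd274, Pdcd1lg2, Cd80 and Pvr lie right of 0 in both tumor contrasts, and Lgals9 reaches -0.05 with plain totals against blood.

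To compare levels between genes, reads were set to the summed length of annotated exons, as exonic FPKM. In bone marrow, Lgals9 had the highest level (231 ± 17.7, SD, n = 3), followed by Sirpa (169 ± 10.7) and Cd47 (121 ± 3.31), all separated from each other. Cd86 (7.18 ± 1.36), Cd80 (5.67 ± 0.71) and Cd274 (2.89 ± 0.69) were far lower, with the Cd86 and Cd80 ranges overlapping. Pvr (0.316 ± 0.089) and Pdcd1lg2 (0.260 ± 0.307) were lowest and also overlapped. In tumor the order was led by Cd274 at 230 ± 75.9, whose range overlapped that of Lgals9 at 150 ± 2.89. Sirpa (64.9 ± 18.8) and Cd47 (63.0 ± 6.60) came next and overlapped, then Cd80 (40.1 ± 9.20) and Pdcd1lg2 (13.0 ± 4.27). Pvr (5.83 ± 0.78) and Cd86 (4.07 ± 1.04) were lowest and overlapped. Cd274 thus went from rank 6 of the 8 genes in bone marrow to rank 4 in blood, at 34.2 ± 8.01, and to rank 1 in tumor.

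**Figure D3:**
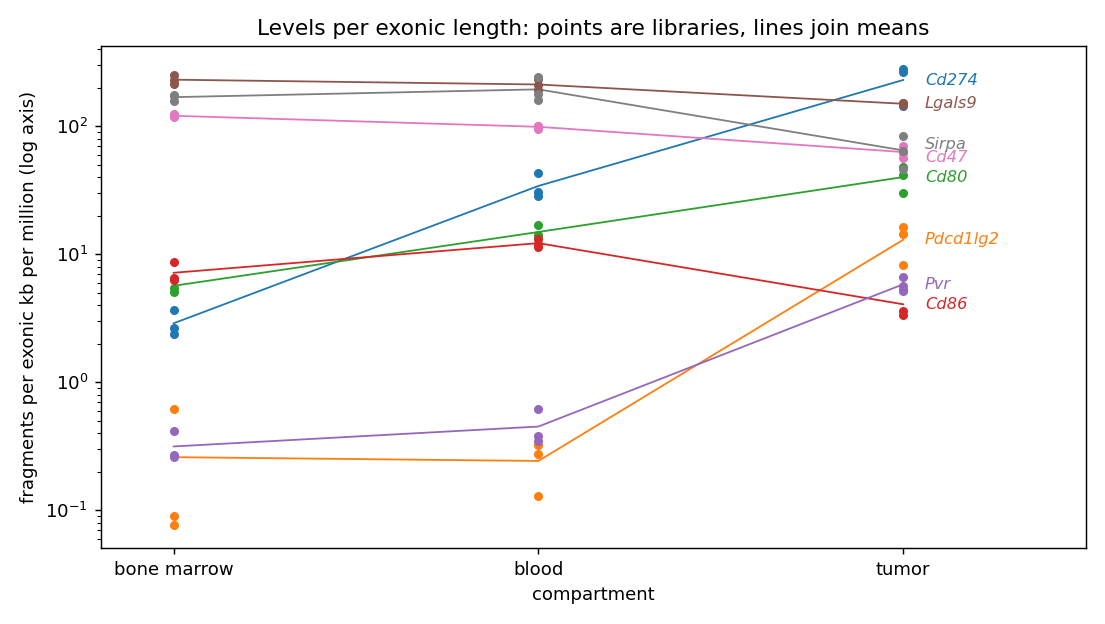
Exonic FPKM of the 8 genes on a log axis in bone marrow, blood and tumor. Points are libraries and lines join the means of 3. Cd274 climbs from 2.89 to 34.2 and 230, while Cd86 peaks in blood.

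The sort was checked against marker genes, since reads of other cells could enter these values. All 12 neutrophil markers had reads in every compartment. Their sum was lowest in tumor, between 15412 and 21406 RPM, against 34513 to 35481 in blood and 113234 to 118146 in bone marrow. Ltf (30624 to 32803) and Ngp (31067 to 34351) made up most of the bone marrow sum. Single markers went either way, with 9 of the 12 lower in tumor than in blood without overlap. With plain totals, 26.9% of all genes over the filter were lower and 39.7% higher in tumor than in blood without overlap. Ltf, Camp and Ngp were higher (Ltf at 2324 to 4326 RPM in tumor and 398 to 621 in blood). Ly6g itself, the gene of the sorted antigen, had 600 to 737 RPM in bone marrow, 95.7 to 127 in blood against 28.7 to 83.7 in tumor. In these bulk libraries, fewer cells of a type and less RNA per cell cannot be told apart. Markers of tumor epithelium, such as Krt8 and Krt19, summed to 3858, 2926 and 6259 RPM in the 3 tumor libraries, against at most 141 elsewhere. Fibroblast markers summed to 1108 to 1363 in tumor and at most 9.99 elsewhere.

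The third tumor library had the most epithelial reads. In log2 FPKM it had the lowest Cd274, Cd80, Pdcd1lg2 and Cd47 of the 3 and the highest Cd86. Its Pvr, Lgals9 and Sirpa values lay between those of the other tumor libraries. Without this library, the Cd274 difference from blood was 3.02, beside 2.71 with it. The part of epithelial and fibroblast reads in the tumor values of the 8 genes was not tested. Macrophage markers, from cells that can carry PD-L1, CD80 and CD86, summed to 462 to 478 in bone marrow, 1409 to 1597 in blood against 626 to 841 in tumor. Dendritic cell markers summed to 22.4 to 41.0 in bone marrow, 115 to 160 in blood against 61.3 to 68.9 in tumor, where Siglech had 0 reads. Both sums were highest in blood, but single markers went either way. The counts of markers below are to be read beside the shares of all genes over the filter with plain totals. Of these genes, 39.7% were higher and 26.9% lower in tumor than in blood without overlap. Of 10 macrophage markers, C1qa, C1qb, Mrc1 and Mertk were higher in tumor than in blood without overlap (C1qa at 4.61 to 5.88 RPM in tumor and at most 2.40 in blood), while Csf1r, which made up most of the blood sum, and Apoe were lower. Of 10 dendritic cell markers, Fscn1 was higher in tumor (6.31 to 14.1 RPM, at most 0.439 in blood) and 5 were lower. The part of these cells in the ligand values was not tested. B cell markers summed to 93.3 to 120 in tumor, 259 to 400 in blood and 207 to 323 in bone marrow. T and NK cell markers summed to 6.06 to 8.90 in tumor and 15.8 to 36.9 elsewhere, with Ncr1 and Klrb1c at 0 reads in tumor. Endothelial markers summed to up to 130 RPM in tumor and 123 in blood, but 5 of the 6 were higher in tumor without overlap (Kdr at 6.31 to 8.81 RPM, at most 0.293 in blood), and the blood sum was mostly Vwf, which platelets also carry. Red cell markers reached 139 in tumor and 471 in blood.

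**Figure D4:**
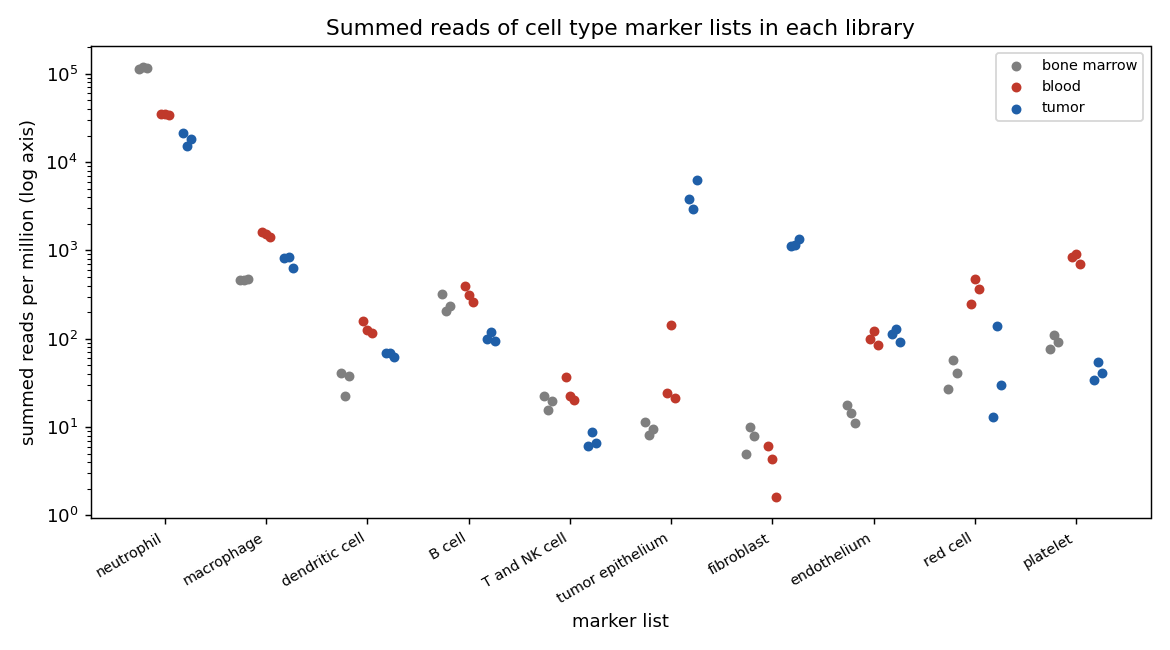
Summed RPM of each cell type marker list on a log axis, with 1 point per library of bone marrow, blood and tumor. The epithelial and fibroblast lists stand far higher in tumor, the third tumor library has the most epithelial reads (6259), and the macrophage and dendritic cell lists are highest in blood.

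Apart from Havcr2 and Cd226, the receptors of these ligands were scarcely detected, and none of the 7 passed the filter. Pdcd1, the gene of PD-1, had 0 to 4 reads in bone marrow, 0 to 3 in blood against 0 to 29 in tumor. Ctla4 had at most 6 reads in any library, and Cd28 at most 26. Tigit had 0 to 5 reads in bone marrow, 7 to 24 in blood against 0 to 19 in tumor. Havcr2, the gene of TIM-3, was the best detected, with 15 to 20 reads in bone marrow, 56 to 65 in blood against 190 to 284 in tumor, and did not overlap between compartments. Cd226, the activating receptor of CD155, had 104 to 175 reads in blood and 0 in all tumor libraries. Taking 3 reads per library as the limit that a count of 0 allows, the mean blood level was 53.4-fold above the mean limit in tumor. The lowest blood library had 18.7 RPM, beside a tumor limit of up to 0.551 RPM. Platelets also carry CD226, and platelet markers summed to 698 to 918 RPM in blood against 34.2 to 55.1 in tumor. The NK cell genes Ncr1 and Klrb1c, with 30 to 40 and 16 to 30 reads in blood, also had 0 in tumor, and the part of either cell type in the Cd226 reads was not tested.

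Genes of the same families and pathways were taken from lists of 75 genes, of which 44 passed the filter. Against blood, 6 were higher and 28 lower in tumor, and against bone marrow 12 were higher and 22 lower. As shares of the 44 these were 13.6% and 63.6%, and 27.3% and 50%, beside 28.1% and 34.5% of all genes against blood and 22.4% and 32.9% against bone marrow. The 44 genes had median log2 fold changes of -1.21 and -0.32 (-0.17 and -0.21 over all genes tested). These counts depended on the scaling, since plain library totals gave 13 higher and 24 lower against blood and 15 of each against bone marrow (37.5% and 24.4%, and 33.4% and 21%, of all genes). Without the third tumor library, 10 rather than 6 were higher against blood. Between blood and bone marrow, 25 were higher and 8 lower in blood, with either scaling. In both tumor contrasts, 4 genes were higher and 18 lower, of which 4 and 13 held with either scaling. The share of all genes called in both contrasts was not computed, and both use the same tumor libraries. These counts are therefore no finding about the lists.

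The 4 genes higher in both came from 3 of the lists. Tnfsf9, the ligand of the costimulatory receptor 4-1BB, rose with a log2 fold change of 1.26 against blood and 4.67 against bone marrow (limma adjusted p = 0.00285 and 5.18e-06). Thbs1 encodes thrombospondin-1, which also binds CD47, and rose by 2.01 and 2.67 (limma adjusted p = 0.000119 and 3.4e-05). Calr, whose product calreticulin acts as an "eat me" signal opposed by CD47, rose by 2.28 and 1.02. Myc, a transcription factor and regulator of Cd274 and Cd47, rose by 4.26 and 1.97. Epithelial and fibroblast markers were also far higher in tumor, and the part of such reads in these 4 genes was not tested.

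In the remaining B7 family, 7 genes were listed and 2 tested. Vsir, the gene of the checkpoint ligand VISTA, was lower in tumor by -1.51 against blood and -1.99 against bone marrow, opposite to Cd274. It was the more abundant of these in reads, with 14129 to 14519 in bone marrow libraries. Icosl, the ligand of ICOS, was lower against blood (-0.90, limma adjusted p = 0.00443), with a difference of -0.23 from bone marrow that did not pass (adjusted p = 0.353, and 0.22 with plain totals). Cd276 (B7-H3) had 65 to 165 reads in tumor and at most 3 elsewhere, and Vtcn1 (B7-H4) had 25 to 91 in tumor and 0 elsewhere. Nectin2, a relative of Pvr, had 204 to 447 reads in tumor and at most 13 elsewhere. None of these 3 passed the filter, and each had its reads where the epithelial markers were high, whose part was not tested. Nectin4 had 14 to 23 reads in bone marrow, 16 to 32 in blood against 3 to 20 in tumor, and Nectin1 and Nectin3 at most 9 in any library.

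Among 12 TNF family genes, 4 were tested, and Tnfsf9 was the 1 gene among these higher in tumor than in blood, to which plain totals added Tnfrsf18 (0.48, limma adjusted p = 0.0488). Under the filter, Tnfrsf9, the receptor 4-1BB, had 69 to 118 reads in tumor, 6 to 11 in blood and 0 in bone marrow, and was higher than in blood by limma-voom (2.71, adjusted p = 0.000436). Tnfsf4, the ligand of OX40, had 3 to 8 reads in tumor and 0 elsewhere. Tnfrsf14 (HVEM), the receptor of LIGHT and BTLA, was lower in both tumor contrasts (-2.58 and -2.82). Tnfsf14, the gene of LIGHT, was lower against blood (-2.09, limma adjusted p = 5.5e-05). The 3 further galectins differed from each other. Lgals8 was higher in tumor than in blood (0.71, limma adjusted p = 0.00569), and against bone marrow passed only with plain totals (0.85, adjusted p = 0.0018). Lgals3, like Lgals9, was lower than in bone marrow (-1.21, limma adjusted p = 0.00164), and with plain totals it was higher than in blood (0.61, adjusted p = 0.0184). Lgals1 had 229 to 315 reads in tumor, 29 to 54 in bone marrow and 0 to 12 in blood, and was called higher against blood (limma adjusted p = 0.00525). The part of epithelial and fibroblast reads in its tumor value was not tested.

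Of 15 further inhibitory ligands and receptors, 11 were tested, and 8 were lower and none higher in tumor than in blood by limma (34.5% and 28.1% of all genes). With plain library totals these were 7 lower and 2 higher (24.4% and 37.5% of all genes). Against bone marrow, 9 were lower and 2 higher, beside 32.9% and 22.4% of all genes. With plain totals these were 7 and 2, beside 21% and 33.4%. The 2 higher were Lilrb4a, an inhibitory receptor gene with 20111 to 35812 reads in tumor (1.02, limma adjusted p = 0.00618), and Cd244, the receptor 2B4 (0.50, adjusted p = 0.0212). Against blood, Lilrb4a did not pass (0.25, adjusted p = 0.368) unless plain totals were used (0.70, adjusted p = 0.0123), and Cd244 was lower (-2.84, limma adjusted p = 4.56e-06). Most encode receptors with inhibitory motifs on myeloid cells. Against blood and bone marrow, the log2 fold changes were -2.57 and -2.18 for Pirb, -2.23 and -1.05 for Siglece, -1.99 and -1.58 for Pilra, and -2.07 and -2.24 for Siglecg. They were -2.11 and -3.04 for Spn, encoding CD43, -1.26 and -2.81 for Clec12a, and -0.87 and -2.96 for Ceacam1, a ligand of TIM-3. These 7 passed in both contrasts, with the exception under plain totals of Ceacam1 against blood (-0.42, adjusted p = 0.148).

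Partners of CD47 and SIRPα were taken as 11 genes, of which 9 were tested. In tumor, 2 were higher and 5 lower than in blood, with either scaling. Against bone marrow, 3 were higher and 3 lower (5 and 2 with plain totals). These counts are to be read beside the shares of all genes (28.1% and 34.5%, and 22.4% and 32.9%). With plain totals those shares were 37.5% and 24.4%, and 33.4% and 21%. Ptpn6, the gene of the phosphatase SHP-1 that SIRPα recruits, was lower by -2.17 and -1.32 (limma adjusted p = 1.47e-05 and 0.0002), as was Skap2, an adaptor of SIRPα signalling (-1.64 and -1.19). Sirpb1a, Sirpb1b and Sirpb1c, activating relatives of SIRPα with near-identical sequence, had lower values in tumor compared with blood (-1.95, -2.12 and -1.70) and may share reads. Against bone marrow, Sirpb1c was higher (1.14), whereas the others did not pass (0.46 and 0.36) unless plain totals were used (0.91 and 0.81).

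Of 16 regulators of PD-L1, 15 were tested, and 1 was higher and 11 lower in tumor than in blood (4 and 8 with plain totals), against 5 higher and 7 lower compared with bone marrow (5 and 3 with plain totals). Of all genes, 28.1% were higher and 34.5% lower against blood, and 22.4% and 32.9% against bone marrow. With plain totals these shares were 37.5% and 24.4% against blood, and 33.4% and 21% against bone marrow. Cmtm6, whose product keeps PD-L1 at the cell surface, was lower by -1.64 and -0.95. Among genes of interferon signalling, those lower in both tumor contrasts were Ifngr1 at -1.51 and -0.25, Ifngr2 at -1.69 and -1.15, Jak1 at -1.48 and -0.74, Irf2 at -1.62 and -0.83, and Irf9 at -1.42 and -0.58. Stat3 was also lower, at -1.42 and -0.57. With plain totals, the calls against blood held for these 6 genes, while the bone marrow contrast was lost for Stat3 (-0.12), Irf2 (-0.38) and Irf9 (-0.13) and turned in sign, without passing, for Ifngr1 (0.20, adjusted p = 0.115). Irf1, which activates Cd274, was lower than in blood (-1.09) but higher than in bone marrow (0.44). Hif1a, the gene of HIF-1α, was higher than in bone marrow (1.05, limma adjusted p = 0.00158) and did not pass against blood (0.43, adjusted p = 0.0684) unless plain totals were used (0.88, adjusted p = 0.00178). From bone marrow to blood, 11 of the 15 were higher and 1 lower (20.6% and 23.6% of all genes).

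**Figure D5:**
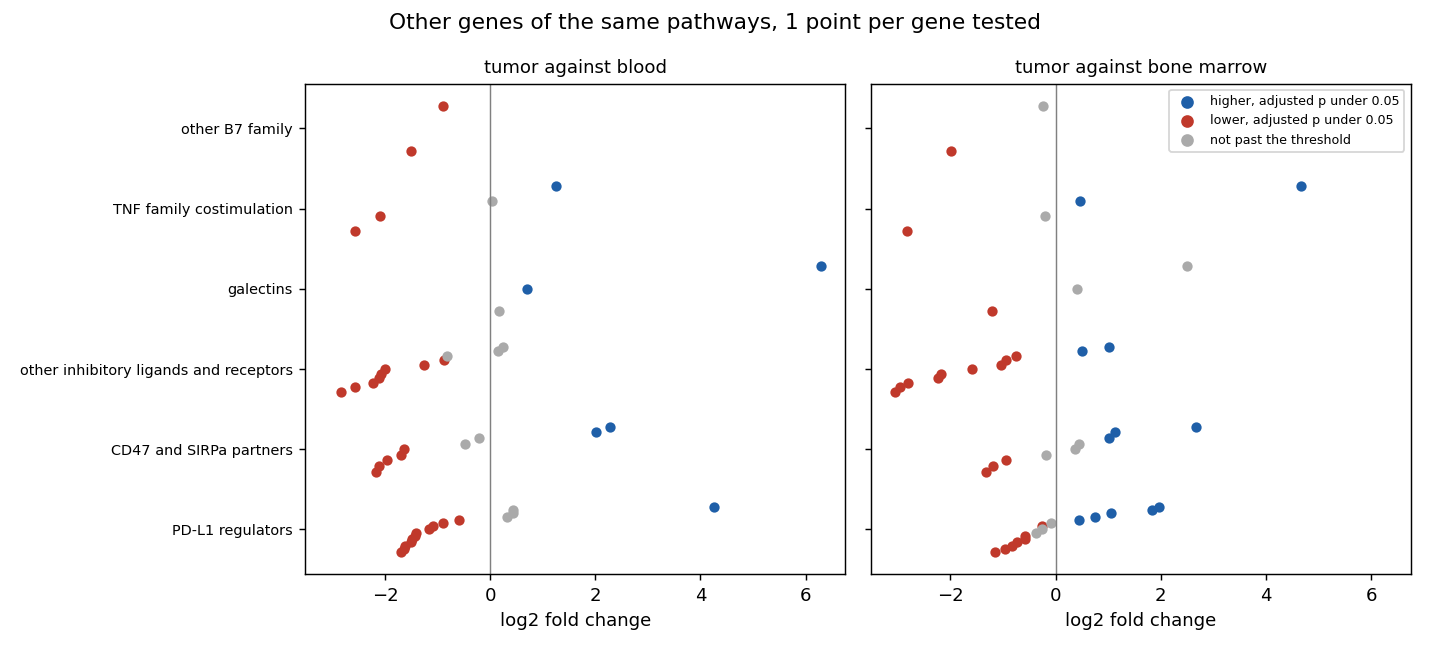
Log2 fold change of the 44 genes tested from 6 family and pathway lists, tumor against blood and tumor against bone marrow, with 1 point per gene. Blue and red mark genes higher and lower in tumor at an adjusted p under 0.05 in limma, and grey those that did not pass. Red points outnumber blue in both contrasts (28 to 6 and 22 to 12).

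The genes with the most similar pattern over the 9 libraries were found by Pearson correlation among 6010 genes tested with enough reads. These correlations describe 3 compartments that all genes share, and carry no test. Cd274 was most like C3ar1, a complement receptor gene (r = 0.994), and Junb, an AP-1 subunit gene (r = 0.992). Cd80 was most like Snapc1 (r = 0.995) and Bnip3, a hypoxia-responsive mitophagy gene (r = 0.991). Pvr was most like Ctsl, the gene of cathepsin L (r = 0.996), and Cdkn1a, the gene of the cell cycle inhibitor p21 (r = 0.994). Cd47 was most like Rmnd5b and Traf7 (r = 0.996 each), and Sirpa like Gsr (r = 0.991) and Grb2 (r = 0.983).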

How the data were processed

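RNA was sequenced after SMARTSeq v2 amplification. The authors mapped reads with STAR 2.5.2b to GRCm38, counted them with featureCounts 1.5.0 on GENCODE M7, and deposited log2 FPKM values. Whole reads were recovered for all 46517 genes from the steps between low values (tolerance 1e-05 reads). The FPKM length equalled the genomic span for 84.5% of genes found in GENCODE M21, which gave positions (GRCm38) and exon lengths.

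Log2 FPKM over 0 in at least 3 libraries was required, and 1 coefficient per compartment was fitted in limma 3.58.1 (R 4.3.3, eBayes with trend), with Benjamini-Hochberg adjusted p-values over 7794 genes at 0.05. Single values were compared with exact two-sided permutation tests. The genes and lists were chosen with earlier results of these data known. Genes named are the 8 ligand genes, the receptors, the listed genes past the threshold in both tumor contrasts, and for each ligand gene tested the 2 genes most like it (at least 50 reads in 3 libraries; those of Lgals9 are not reported here); others were named after their values were seen. No pairing of libraries by replicate number was visible, and the main fit treated them as unpaired. Alternatives were other filters, pseudocounts of 1 and 0.1 FPKM, scalings, limma-voom on recovered reads (genes reaching 5 reads in a library), the replicate block, and each library left out. PCR duplicates were not removed, so counting intervals cover counting error only. The limma fit was tested on simulated data.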

Additional observations from a re-analysis of the deposited data

How the results depend on the processing

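No call of the 8 genes reversed direction under 23 alternatives, and of 498 values recomputed 465 kept their call or stayed within the replicate spread, 22 lost the call and 11, of Cd86 and Pdcd1lg2, moved by more than the replicate spread. Among the 6 genes over the filter, the calls lost were those of Lgals9 and Cd47, from alternatives named with them or below, or from asking for a log2 fold change of at least 1. Without a filter, with median centring, without the variance trend, with limma-voom, and with a log2 fold change of at least 1, the count lower in blood than in bone marrow was 0 rather than 1 (leaving out 1 library at a time, 0 to 1). A stricter filter (log2 FPKM over 2) kept 4 of the 8 genes, of which 1 was higher in each contrast. Asking for a log2 fold change of at least 1 left 1 of the 8 genes lower in tumor than in blood and 1 lower than in bone marrow.

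Of the family and pathway genes, the count higher in tumor than in blood was 6. It was 10 with quantile normalization and 13 with plain library totals. Without a filter it was 17, with limma-voom 19 and with limma-voom on plain totals, chosen after seeing the data, 24. The fits without a filter and with limma-voom also took in listed genes under the filter, so their counts are not out of the same 44 genes. Of all genes, 28.1% were higher in the main fit, 37.5% with plain totals, 33.1% with limma-voom and 41.2% with limma-voom on plain totals. In the main fit, leaving out 1 library gave a count of 6 to 10, with 10 without the third tumor library. The count higher than in bone marrow was 12, and 22, 23 and 28 without a filter and with the 2 limma-voom fits. Of all genes, 22.4% were higher than in bone marrow in the main fit, and 29.3% and 39.2% in the 2 limma-voom fits. A log2 fold change of at least 1 gave 13 lower in tumor than in bone marrow, and 11 higher and 5 lower in blood than in bone marrow.

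Deviations of same-numbered libraries correlated between -0.07 and 0.11, and those of differently numbered libraries between -0.10 and 0.11. No pairing by replicate number was therefore visible, but 3 libraries per compartment cannot show that the pools were unpaired. The replicate block gave 4851 genes called in tumor against blood (4880 without it), 4241 against bone marrow (4311) and 3383 between blood and bone marrow (3446), and changed no call of the 8 genes.

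A pseudocount of 1 FPKM reduced the Pdcd1lg2 difference from 5.67 to 0.49 against blood, since its FPKM stayed under 1 in every library. Depth limits Pdcd1lg2 and Pvr in blood and bone marrow and all receptors but Havcr2 and Cd226. No difference between blood and bone marrow was detectable for Pdcd1lg2, Pvr, Pdcd1 and Ctla4. Cd28 was higher in blood by limma-voom (3.82, adjusted p = 0.0118) but did not pass in limma without the filter (4.40, adjusted p = 0.103). Tigit and Cd96 were higher in blood without overlap but did not pass (limma-voom adjusted p = 0.0511 and 0.0516).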
